A study of Mus musculus with 16 samples.

Results

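Leptin (Lep) and 6 genes that mark fat cells, Adipoq, Cfd, Retn, Plin1, Cidec and Fabp4, were followed in mouse quadriceps muscle. The members were every probe of these 7 genes on the arrays, found by matching the accession of each probe to a gene symbol: 10 probes of 41174, and 7 genes of 25189 features that passed the filter on dim probes. Lep, Adipoq, Cfd, Plin1 and Cidec had 1 probe each, Retn had 2 and Fabp4 had 3, and all 10 were well above background on all 16 arrays. RNA came from 4 groups of 4 animals: wild-type (WT) mice and Klf15 knockout (KO) mice, each given either vehicle or 2 mg/kg dexamethasone by 1 intraperitoneal injection and sampled at 8 h. Klf15 encodes a zinc-finger transcription factor and dexamethasone is a synthetic glucocorticoid. The sources used here do not give the age, sex or strain of the animals or the design of the knockout allele.

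Leptin is a hormone secreted almost entirely by fat cells, and its blood level follows fat mass and acts on the brain to restrain feeding. Adipoq encodes adiponectin, Cfd encodes adipsin (complement factor D) and Retn encodes resistin, which fat cells also secrete. Plin1 and Cidec encode proteins of the lipid droplet surface, and Fabp4 encodes the fatty acid binding protein of adipocytes, which endothelial cells and macrophages make as well. Whole muscle holds fat cells between its fibres and along its fascia, so a dissected sample carries a variable amount of fat. Glucocorticoids are known to raise leptin in adipocytes. Leptin induction was therefore set against the level of the other fat cell genes, array by array.

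Each value is the log2 signal of a probe relative to the 75th percentile of its array, so a value of 1 is 2 times that percentile. Changes are log2 differences between group means, and adjusted p-values come from limma with Benjamini-Hochberg adjustment over all 25189 features, two-sided, with a threshold of 0.05. Arrays had 66.3% to 80.6% of spots well above background. WT dexamethasone replicate 3 was the only array with a different scan date, and its 75th percentile intensity (553.9) was the lowest. Klf15 lay between -1.29 and 0.64 on the 8 KO arrays and between 2.80 and 4.77 on the 8 WT arrays. Fkbp5, a glucocorticoid target, rose 7.90-fold in WT and 6.74-fold in KO (adjusted p = 3.58e-07 and 4.90e-07, limma). The 10 skeletal muscle markers were well above background on all 16 arrays, and none passed the test in any comparison. Neutrophil markers stood high on 2 arrays: the mean deviation of 8 genes was 6.91 on WT dexamethasone replicate 3 and 5.56 on KO dexamethasone replicate 1, against -1.93 to 0.24 on the others.

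The promoter sequences of the members give context for the values that follow. RefSeq windows of 300 bases, from 250 bases before to 50 after a gene start on build GRCm38.p6, were at hand for Lep, Adipoq, Cfd, Retn, Plin1 and Cidec, the last with 2 starts. They are shown for leptin, which rose with dexamethasone, for Cidec, the marker with the next largest rise, and for Adipoq, which is used below as a covariate. The Lep window is chr6:29059971-29060270 on the plus strand, the Cidec window chr6:113434715-113435014 on the minus strand and the Adipoq window chr16:23146286-23146585 on the plus strand. Each runs 5′ to 3′ along the gene, and capitals mark every match, on either strand, to the motifs searched.
Lep: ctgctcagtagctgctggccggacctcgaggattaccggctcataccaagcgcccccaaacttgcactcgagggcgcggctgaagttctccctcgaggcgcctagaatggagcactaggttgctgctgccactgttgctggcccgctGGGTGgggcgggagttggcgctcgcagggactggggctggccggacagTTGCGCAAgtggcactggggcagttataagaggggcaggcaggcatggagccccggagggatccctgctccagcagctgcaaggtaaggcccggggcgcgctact
Cidec: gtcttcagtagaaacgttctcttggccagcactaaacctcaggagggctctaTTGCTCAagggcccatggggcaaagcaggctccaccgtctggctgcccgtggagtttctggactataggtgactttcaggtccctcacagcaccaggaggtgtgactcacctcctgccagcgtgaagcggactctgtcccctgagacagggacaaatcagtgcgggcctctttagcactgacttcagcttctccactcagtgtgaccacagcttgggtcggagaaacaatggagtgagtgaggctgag
Adipoq: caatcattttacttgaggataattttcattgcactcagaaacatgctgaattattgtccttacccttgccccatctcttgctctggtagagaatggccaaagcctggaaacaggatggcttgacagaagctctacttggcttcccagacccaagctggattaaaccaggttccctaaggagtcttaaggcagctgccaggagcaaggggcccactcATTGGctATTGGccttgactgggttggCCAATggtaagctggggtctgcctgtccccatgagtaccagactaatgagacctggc

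The motifs were AGAACA (a glucocorticoid receptor half-site), AGGTCA (a nuclear receptor half-site), the CCAAT box, TTGCNCA (the core of C/EBP sites), CACCC (the box bound by KLF factors) and the TATAAA box. The Lep window held 2 overlapping matches to the C/EBP core, on opposite strands and starting at positions -55 and -54 from the gene start, and 1 CACCC match on the minus strand. The C/EBP core was also present in the Cidec window shown and in the Plin1 window, and 13.6% of all 32851 windows held it. The other Cidec window (chr6:113435711-113436010) held no match to any motif searched. CACCC was found in the Lep, Cfd and Plin1 windows and in 57.5% of all windows. The Adipoq window held 3 CCAAT matches, a motif present in 37.4% of windows. None of the 7 windows held AGAACA, which 19% of windows held, or AGGTCA (16.3%), or TATAAA (13.6%). These are descriptions of letters in short windows, and no binding was measured.

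Leptin was the member that rose with dexamethasone. In vehicle-treated WT muscle Lep was at -3.08, -3.85, -4.06 and -3.80 (replicates 1 to 4), and in dexamethasone-treated WT muscle it was at -1.51, -3.22, -2.60 and -2.32. Of the 4 treated WT arrays, 3 lay above every vehicle array, and replicate 2 lay within the vehicle range. In vehicle-treated KO muscle Lep was at -3.51, -3.40, -3.50 and -3.21, and after dexamethasone at -2.37, -1.43, -1.06 and -1.36. All 4 treated KO arrays lay above all vehicle arrays of either genotype, as did 7 of the 8 treated arrays overall.

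Lep rose 3.59-fold with dexamethasone in KO muscle (log2 change 1.84, SE 0.34, n = 4 per group, adjusted p = 0.0034, limma). It rose 2.44-fold in WT muscle (1.29, SE 0.34, n = 4 per group, adjusted p = 0.027, limma). Averaged over genotypes the rise was 2.96-fold (1.57, SE 0.24, adjusted p = 0.00045, limma). Lep was the 1 member of 7 to pass in each of these comparisons, where 10.2% of all features passed in KO, 10.7% in WT and 17.2% on average. Among features that rose, it ranked 97 of 1433 by size in KO and 186 of 1272 in WT. Groups that did not overlap, with dexamethasone higher, were found in KO for 9.15% of all features and in WT for 7.7%.

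The rise in WT was the weaker call. Leaving out any of WT vehicle replicates 2, 3 or 4, or WT dexamethasone replicates 1 or 4, gave changes from 0.99 to 1.26 and adjusted p-values from 0.062 to 0.080. With slide as a fixed block the WT change was 0.63 (adjusted p = 0.43), a fit to which 3 arrays alone on their slides (KO vehicle 2, WT dexamethasone 1 and 3) add nothing. With normexp background correction it was 0.81 (adjusted p = 0.76), and 0.79 (adjusted p = 0.054) once spots of high local background were left out of that correction. The KO rise passed under these alternatives except normexp on all spots (1.28, adjusted p = 0.16). Within slides, dexamethasone and vehicle arrays of 1 genotype differed by 0.59 on slide 5 (WT) and by 0.83, 2.13 and 2.07 on slides 4, 6 and 7 (KO), higher with dexamethasone on all 4.

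**Figure D1:**
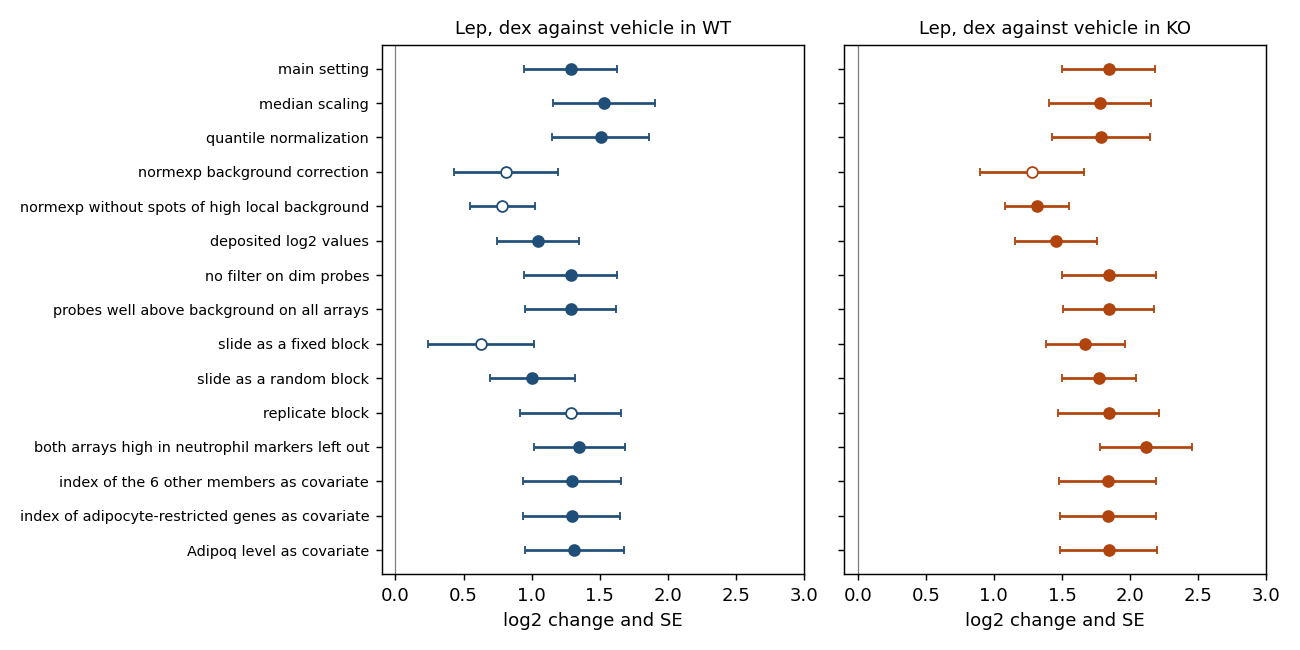
Log2 change of Lep with dexamethasone in WT (left) and KO (right) under the main setting and 14 alternatives, as points with the SE; filled points have adjusted p under 0.05 and open points do not. The WT values ran from 0.63 to 1.53 with 4 open points, and the KO values from 1.28 to 2.12 with 1.

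The Lep probe was printed 10 times on each array, which shows the precision of a single array. After 2 outlier-marked spots on KO vehicle replicate 3 were left out, the SD between spots of an array had a median of 0.15 and reached 0.68 on WT vehicle replicate 4. The SD between arrays of a group ran from 0.14 in KO vehicle to 0.71 in WT dexamethasone. The spots of the 4 WT vehicle arrays, where the probe was dimmest, had SDs of 0.37 to 0.68, larger than the median over arrays.

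No difference in Lep between genotypes passed the test after adjustment. The order of group means was KO dexamethasone (-1.56 ± 0.57, SD, n = 4), WT dexamethasone (-2.41 ± 0.71), KO vehicle (-3.40 ± 0.14) and WT vehicle (-3.70 ± 0.42). KO exceeded WT by 0.85 under dexamethasone (95% interval 0.12 to 1.59, unadjusted p = 0.026, adjusted p = 0.28, limma) and by 0.30 under vehicle (95% interval -0.44 to 1.03, adjusted p = 0.88, limma). Neither pair of neighbours was separated at the threshold, and WT dexamethasone against KO vehicle was not tested. On slide 8, the 1 slide with both treated genotypes, KO was 1.26 higher. The interaction, the rise in KO minus that in WT, was 0.56 (95% interval -0.48 to 1.60, adjusted p = 0.69, limma). No feature passed the interaction in limma (0 of 25189), while 2892 had an unadjusted p under 0.05.

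**Figure D2:**
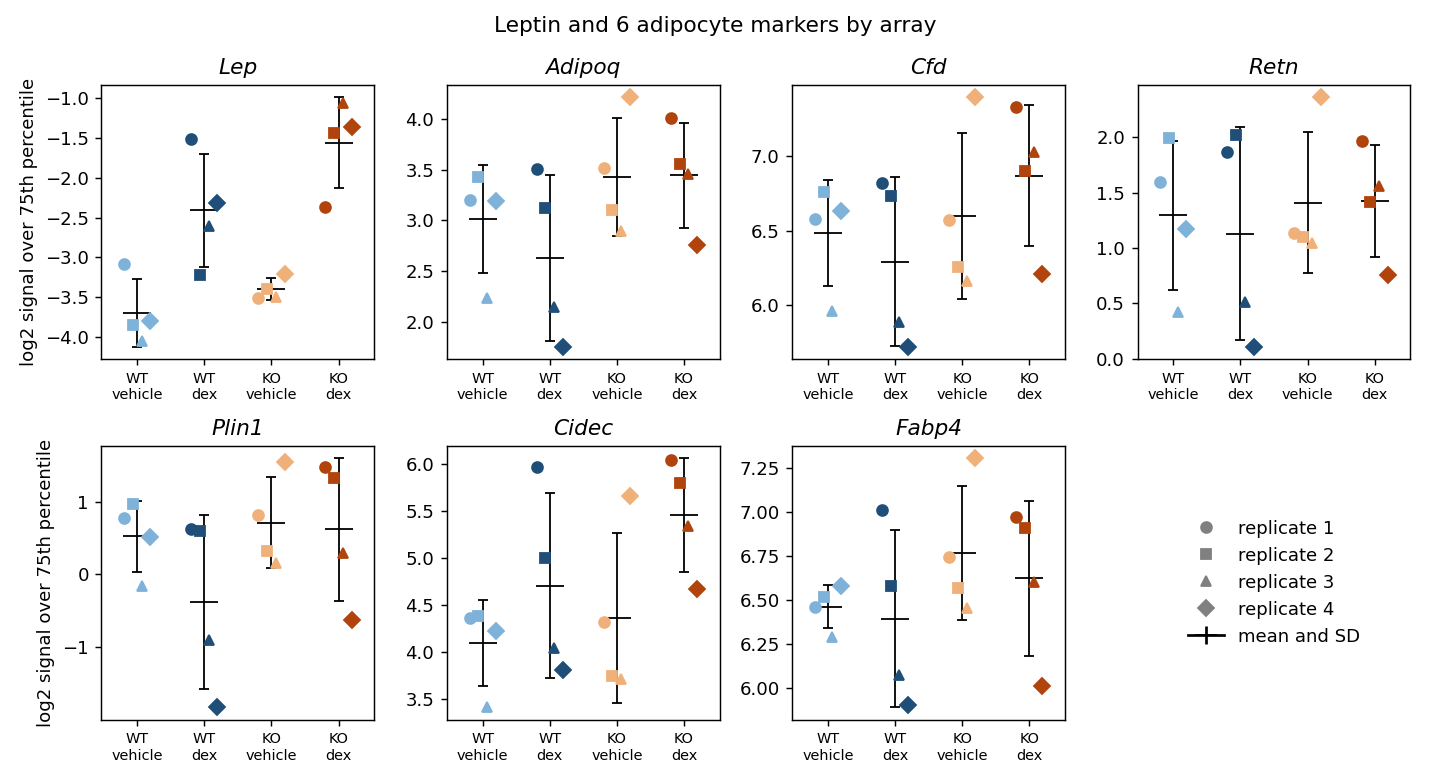
Log2 signal over the array's 75th percentile for the 7 genes, with a point per array (marker shape gives the replicate) and bars for the mean and SD of the 4 groups. Lep is higher on 7 of 8 dexamethasone arrays than on any vehicle array, while the vehicle and dexamethasone ranges of the 6 other genes overlap in each genotype.

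None of the 6 other fat cell genes passed the limma test with dexamethasone, and their ranges overlapped between vehicle and dexamethasone in both genotypes. At an unadjusted p under 0.05 (limma) there were 0 of the 6 in either genotype and 1, Cidec, averaged over genotypes. Of all 25189 features, 6104 in WT, 5328 in KO and 6848 on average reached that p. The median change of the 6 was -0.18 in WT and 0.02 in KO, beside -0.08 and 0.08 over all features. Among the secreted factors, Adipoq was at 3.21, 3.43, 2.23 and 3.19 in vehicle-treated WT and at 3.50, 3.12, 2.14 and 1.75 in dexamethasone-treated WT. In KO it was at 3.51, 3.10, 2.89 and 4.21 under vehicle and at 4.01, 3.56, 3.46 and 2.76 under dexamethasone. High and low arrays were thus found in every group. The Adipoq change was -0.39 in WT (95% interval -1.29 to 0.52) and 0.02 in KO (-0.89 to 0.92).

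Cfd ranged from 5.73 to 7.39 over the 16 arrays and changed by -0.19 in WT (95% interval -0.91 to 0.53) and 0.27 in KO (-0.45 to 0.99). Retn ranged from 0.11 to 2.36 and changed by -0.17 in WT (-1.20 to 0.86) and 0.01 in KO (-1.02 to 1.05), and its second probe gave -0.09 and 0.0037. Retn belongs to a family of similar genes, so its signal is uncertain in that respect. These intervals for Adipoq, Cfd and Retn still allow changes of close to 1 log2 unit in at least 1 genotype, so the data bound their change only loosely.

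Of the intracellular lipid handling members, Fabp4 had the narrowest intervals. Fabp4 ranged from 5.90 to 7.31 and changed by -0.07 in WT (95% interval -0.64 to 0.50) and by -0.14 in KO (-0.72 to 0.43), with its other probes between -0.33 and -0.06. Plin1, the perilipin that coats the droplets of fat cells, was at 0.77, 0.96, -0.16 and 0.51 in vehicle-treated WT and at 0.62, 0.59, -0.90 and -1.83 after dexamethasone. The low values of replicates 3 and 4 set the WT change of -0.90 (95% interval -2.16 to 0.35, adjusted p = 0.37, limma). In KO the Plin1 change was -0.09 (-1.35 to 1.16).

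Cidec, which promotes the fusion of lipid droplets, had the largest change of the 6 in the upward direction. It was at 4.36, 4.38, 3.41 and 4.22 in vehicle-treated WT and at 5.97, 5.0, 4.04 and 3.80 after dexamethasone. In KO it was at 4.32, 3.74, 3.71 and 5.66 under vehicle and at 6.04, 5.79, 5.34 and 4.66 under dexamethasone. The ranges overlapped in WT through treated replicates 3 and 4, and in KO through vehicle replicate 4, the array with the highest Adipoq. The change was 0.61 in WT (95% interval -0.50 to 1.73, adjusted p = 0.50, limma) and 1.10 in KO (-0.02 to 2.22, adjusted p = 0.24, limma). Averaged over genotypes it was 0.86 (adjusted p = 0.14, limma), and 1.07 (adjusted p = 0.043) without KO vehicle replicate 4. Within slides Cidec was higher with dexamethasone by 0.78 (slide 5), 0.38 (slide 4), 0.95 (slide 6) and 1.48 (slide 7).

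**Figure D3:**
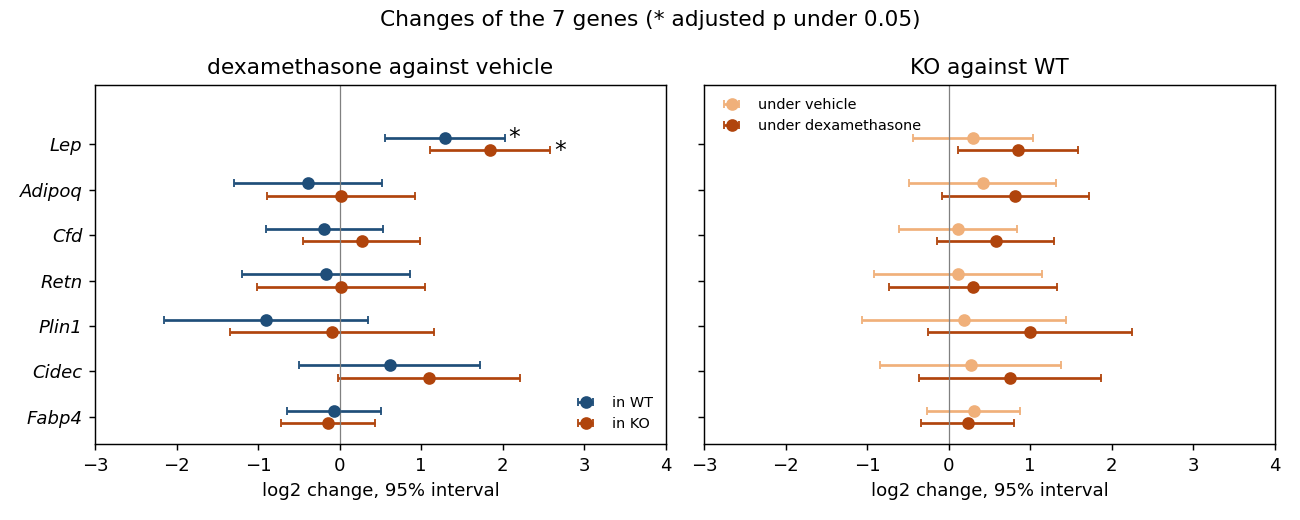
Log2 changes of the 7 genes with 95% intervals, for dexamethasone against vehicle in each genotype (left) and KO against WT under each treatment (right); an asterisk marks an adjusted p under 0.05. Lep alone is marked, in both genotypes on the left, and all 14 points on the right lie above 0 with none marked. The genes other than Lep moved together from array to array, so their points are not independent.

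All 7 genes had higher means in KO than in WT under both treatments, and none passed the limma test. At an unadjusted p under 0.05 (limma) there were 0 under vehicle and 1, Lep, under dexamethasone. Of all 25189 features, 1791 under vehicle and 3479 under dexamethasone reached that p. Under vehicle the differences ran from 0.11 (Retn) to 0.41 (Adipoq), where 0.262% of all features passed. Under dexamethasone they ran from 0.23 (Fabp4) to 1.0 (Plin1), where 1.84% of features passed. The median of the 6 genes other than Lep was 0.23 under vehicle and 0.67 under dexamethasone, beside -0.08 and 0.06 over all features. These 6 genes moved together from array to array (r of 0.84 to 0.98, below), so their shared direction is not 6 separate observations. Of the 13 further adipocyte-restricted genes described below, Sncg was higher in KO under dexamethasone (1.12, adjusted p = 0.026, limma) and averaged over treatments (0.82, adjusted p = 0.024, limma; 1.33% of all features passed), and none passed under vehicle. In these bulk samples more fat cells and more RNA of these genes per cell cannot be told apart.

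The level of the other fat cell genes on an array was summarised by an index, the mean over the 6 genes other than Lep of each gene's deviation from its own mean over 16 arrays. It is a level of RNA, not a measure of fat cells, and it includes Cidec and Fabp4. The index ran from -1.19 on WT dexamethasone replicate 4 to 0.98 on KO vehicle replicate 4, and its group means were -0.12 (SD 0.43) in WT vehicle, -0.30 (SD 0.82) in WT dexamethasone, 0.11 (SD 0.61) in KO vehicle and 0.31 (SD 0.57) in KO dexamethasone. The ranges of the index overlapped between all 4 groups. WT dexamethasone replicate 4 had the lowest Adipoq, Cfd, Retn, Plin1 and Fabp4 of all 16 arrays, and its Lep (-2.32) exceeded that of every vehicle array. KO dexamethasone replicate 4 had the lowest index of its group (-0.47) and the second highest Lep of the 16. KO vehicle replicate 4, with the highest index, had Lep at -3.21, within the vehicle range but the highest of its group. On other arrays Lep and the index stood together. WT vehicle replicate 3 had the lowest index of the vehicle arrays (-0.74) and the lowest Lep of the 16. WT dexamethasone replicate 1 had the highest index (0.53) and the highest Lep (-1.51) of its group. The part of fat in the Lep values was not tested by these single arrays.

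**Figure D4:**
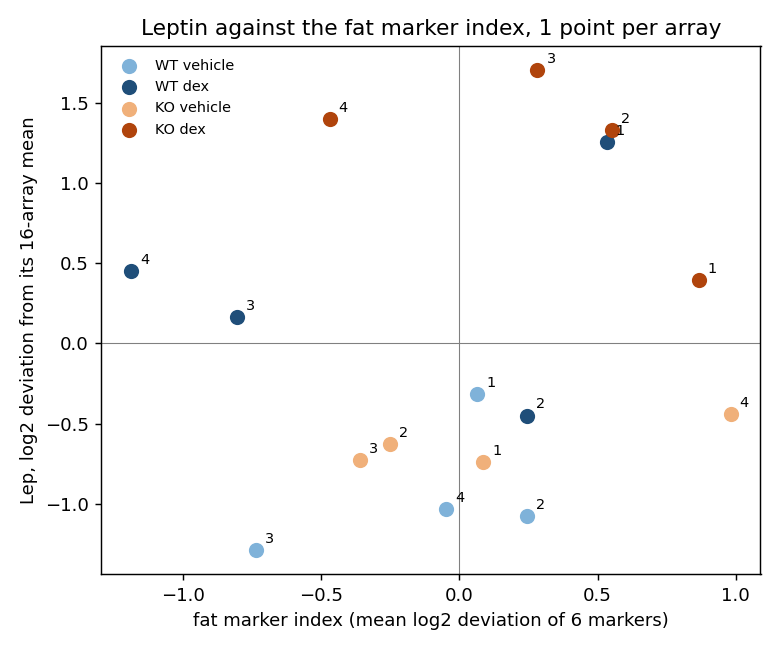
Lep (log2 deviation from its mean over 16 arrays) against the index of the 6 other fat cell genes, with a point per array numbered by replicate and coloured by group. Dexamethasone arrays span index values from -1.19 to 0.87, and 7 of 8 lie above every vehicle array at any index.

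With the index as a covariate in the fit of all features, the Lep rise was 1.30 in WT (SE 0.36, adjusted p = 0.035, limma) and 1.83 in KO (SE 0.36, adjusted p = 0.0054, limma), where 11.2% and 10.8% of features passed. With an index of 13 other genes listed as restricted to adipocytes, the values were 1.30 and 1.84, where 11.3% and 10.9% of features passed. That list includes Plin4, which muscle also makes and which itself rose with dexamethasone (below). With the Adipoq level as the covariate, an alternative added after the data were seen, the Lep values were 1.31 and 1.84 (adjusted p = 0.038 and 0.0049, limma). These values lie close to those without a covariate (1.29 and 1.84). The mean index of 6 differed little between vehicle and dexamethasone (-0.12 and -0.30 in WT, 0.11 and 0.31 in KO). Within groups, r of Lep with the 6 markers was between -0.07 and 0.21. Such a covariate could move the Lep change only a little, so the closeness is no test of the part of fat in it.

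The same adjustment changed the call for Cidec. Relative to the Adipoq level, Cidec was higher with dexamethasone by 1.07 in WT (SE 0.16, adjusted p = 0.0013, limma) and by 1.08 in KO (SE 0.16, adjusted p = 0.00084, limma), where 10.5% and 10.7% of features passed. Without a covariate the Cidec change was 0.61 in WT and 1.10 in KO, and neither passed. Adipoq itself changed by -0.39 in WT and 0.02 in KO, and a change in the covariate enters these values. With the index of 13 genes, Plin4 among them, the Cidec changes were 0.78 (adjusted p = 0.019) and 0.98 (adjusted p = 0.0049). With the index of 6, which contains Cidec itself, they were 0.83 and 0.87. For Plin1 in WT the change was -0.71 with the index of 13 genes (adjusted p = 0.045, limma) and -0.40 with Adipoq as the covariate (adjusted p = 0.31). Cfd, Retn and Fabp4 passed with none of the 3 covariates.

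From array to array within groups the 6 markers moved together while the correlations with leptin were weak. After group means were removed, Pearson r over 16 arrays lay between 0.84 and 0.98 for the 15 pairs among the 6 markers. For Lep with each of the 6 it lay between -0.07 (Plin1) and 0.21 (Cidec). With Adipoq, Lep had r = 0.09 (permutation p = 0.81, adjusted over 21 pairs 0.93) and Spearman rho = 0.09 (permutation p = 0.78, adjusted 0.85), and r = 0.04 without the 2 arrays farthest from the median of Adipoq. Within the 8 vehicle arrays, with the mean of each genotype removed, r for Lep with Adipoq was 0.48 (exact permutation p = 0.24, adjusted over 6 pairs 0.27), and within the 8 dexamethasone arrays it was -0.065 (exact permutation p = 0.92, adjusted 0.97). With the genotype means kept, the same values were 0.58 (exact permutation p = 0.13, adjusted 0.25) and 0.30 (exact permutation p = 0.46, adjusted 0.92). With group means and slide effects both removed, r for Lep with the 6 markers was higher, 0.38 to 0.71, and that for the 15 marker pairs was 0.80 to 0.97. Arrays alone on their slides add nothing to this form, which leaves few degrees of freedom and was given no p. Over the 16 arrays with group means kept, Lep and Cidec had r = 0.61 (permutation p = 0.014, adjusted over 21 pairs 0.019). Spearman rho was 0.58 (permutation p = 0.020, adjusted 0.027), and r was 0.55 without the 2 farthest arrays. For the other 5 markers r with Lep lay between -0.13 (Plin1) and 0.19 (Cfd) in that form. Its permutation moved arrays across the 4 groups, so differences between group means enter the p. With group means removed, Lep and Cidec had r = 0.21 (permutation p = 0.55, adjusted 0.72), and r = -0.23 without the 2 farthest arrays.

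**Figure D5:**
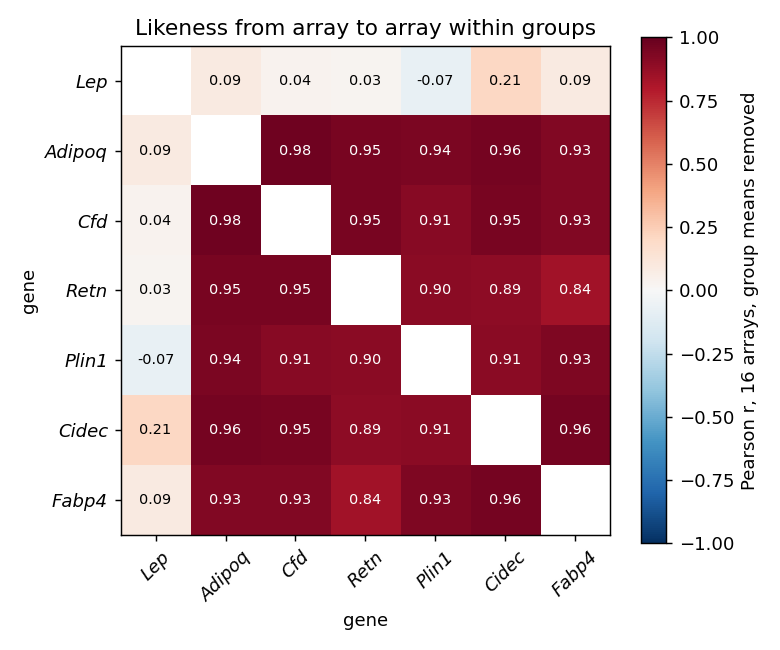
Pearson r between each pair of the 7 genes over 16 arrays after removal of group means, on a colour scale from -1 to 1. The 15 pairs among the 6 markers lie between 0.84 and 0.98 and the 6 pairs with Lep between -0.07 and 0.21.

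Ranked by likeness to Adipoq among 25114 features, Cfd was 2, Cidec 5, Retn 10, Plin1 19 and Fabp4 28, while Lep was 12545. The 8 named features most like Adipoq were Cfd (r = 0.98), Mrap, Slc36a2, Cidec, Pparg, Sowahc, A530016L24Rik and Ces1f (0.95). Pparg encodes the master regulator of fat cell differentiation, and its change with dexamethasone was 0.05 in WT and -0.05 in KO. The 8 most like Lep were P2ry2 (r = 0.91), Zfp647, Pfkfb2, Mpc2, Dkk3, Tomm5, Anp32a and 0610040J01Rik (0.78). Of these, P2ry2 fell with dexamethasone in KO (-0.67, adjusted p = 0.0064, limma) and Anp32a rose in WT (0.46, adjusted p = 0.019, limma). These r values describe 16 arrays that share slides and are given without p.

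Genes listed as restricted to adipocytes, outside the 7, numbered 15, of which 13 were tested. Plin4, a droplet protein that muscle also makes in quantity, rose 2.23-fold in WT and 2.60-fold in KO (adjusted p = 6.49e-05 and 9.40e-06, limma), and no other gene of the list passed within a genotype. That was 1 of 13 in each genotype, where 10.7% of all features were called in WT and 10.2% in KO. Averaged over genotypes Plin4 and the lipase-like Pnpla3 (1.22) rose and Trarg1 (-0.87) and the glycerol channel Aqp7 (-0.66) fell, where 17.2% of all features were called. The median of the 13 was -0.44 in WT and -0.01 in KO. Of 8 brown adipocyte genes tested, Dio2, the enzyme that activates thyroid hormone, rose 2.76-fold in WT and 3.45-fold in KO (adjusted p = 0.0031 and 0.00070, limma), and 7 did not pass. This count of 1 of 8 lies near the same shares of all features. Ucp1, the defining brown fat gene, was well above background on 11 of 16 arrays.

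Among 11 regulators of adipocyte differentiation, 3 rose in WT and none fell, and 3 rose and 1 fell in KO, beside 10.7% of all features called in WT and 10.2% in KO. Zfp423, a determinant of the preadipocyte state, rose 3.15-fold in WT and 2.40-fold in KO. Cebpd, an early C/EBP factor of adipogenesis, rose 1.98-fold and 3.34-fold. Cebpb rose 2.27-fold in WT (adjusted p = 0.0028, limma), and its change in KO was 0.47 (adjusted p = 0.22). Klf4 rose by 0.62 and Mlxipl, the carbohydrate response factor, fell by 0.69 in KO.

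Of 13 other adipokines and secreted factors tested, 3 rose and 3 fell in WT and 2 rose and 1 fell in KO (10.7% and 10.2% of all features were called). Lcn2 rose by 6.35 and 6.42 log2 units and Angptl4, an inhibitor of lipoprotein lipase, by 2.10 and 2.38. The chemokine gene Ccl2 fell by 2.60 in WT and by 1.97 in KO, and Retnla, a relative of Retn, fell by 1.62 in WT.

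In the lipolysis and uptake list of 12 tested genes, 3 rose in WT and 2 in KO, where 10.7% and 10.2% of all features were called. Plin5 rose by 2.01 in WT and 1.85 in KO, and the fatty acid transporter Cd36 by 0.86 and 0.78. G0s2, an inhibitor of adipose triglyceride lipase, rose by 1.94 in WT. Of 15 lipogenesis genes 1 rose and 1 fell in each genotype: Lpin1 (0.70 and 0.59) and Gpam (-0.44 and -0.88). These 2 of 15 lie near the share of all features called. Both lists hold genes that muscle fibres express. The median changes in WT and KO were 0.05 and -0.02 for the regulators, -0.17 and -0.08 for the secreted factors, 0.31 and 0.24 for lipolysis and uptake and 0.14 and -0.14 for lipogenesis, beside -0.08 and 0.08 over all features.

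Genes that carry the leptin and adiponectin signals numbered 13. Of these, 1 rose in WT, and 1 rose and 1 fell in KO. Over all features 10.7% were called in WT and 10.2% in KO, and the counts of this list lie near those shares. Ptpn1, a phosphatase that restrains the leptin receptor, rose by 0.63 in WT and 0.78 in KO (adjusted p = 0.0049 and 0.00099, limma). Sh2b1, an adaptor that enhances leptin signalling, fell by 0.46 in KO. Averaged over genotypes 1 gene rose and 3 fell, where 17.2% of all features were called. Socs3, a feedback inhibitor of the leptin receptor, fell by 0.81 in that average (adjusted p = 0.031, limma). The other genes of the list did not pass within a genotype.

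Markers of other cell types were read on the same arrays. Of 12 genes of fibro-adipogenic progenitors and stroma, 5 fell in WT and 3 in KO, where 10.7% and 10.2% of all features were called, with Lum (-1.16 and -0.78), Dpp4 (-1.05 and -0.69) and Col15a1 (-1.0 and -0.74) in both. Their mean deviation ran from 0.14 to 0.45 on the vehicle arrays and from -0.69 to -0.05 on the dexamethasone arrays. Of 9 macrophage genes, 4 fell in WT and none passed in KO, against the same shares. Endothelial genes, 12 in number, held 1 that fell in WT and 5 that fell and 1 that rose in KO, against the same shares. No gene of the neutrophil, erythroid or slow-fibre lists passed in limma. Their median changes with dexamethasone in WT and KO were 1.97 and 1.05 for neutrophils, 0.85 and 0.78 for erythroid cells and 1.38 and 0.56 for slow fibres. The neutrophil values were uneven between arrays. Their mean deviation was 0.24, 0.05, 6.91 and -1.73 on the treated WT arrays, against -1.17 to -0.35 under vehicle. On the treated KO arrays it was 5.56, -1.82, -0.54 and -1.93, against -1.11 to -0.41 under vehicle. The erythroid mean deviation was also highest on the 2 arrays high in neutrophil markers, at 1.85 and 1.90, against at most 0.34 on the others. Medians in WT and KO were -0.64 and -0.39 for the stromal list, -0.62 and -0.28 for macrophages and 0.06 and -0.11 for endothelium. The part of these cell types in the leptin values was not tested. Without the 2 arrays high in neutrophil markers the Lep change was 1.35 in WT and 2.12 in KO (adjusted p = 0.029 and 0.0027, limma).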

How the data were processed

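RNA of 16 quadriceps samples was measured with 1-colour Agilent arrays. Per the labels' protocols, lysates were amplified as cDNA with a whole-transcript kit and labelled with Cy3. The deposited files give each spot's intensity (linear); per the file headers they come from Feature Extraction, which subtracted background and left arrays unnormalized. The authors' deposited log2 values of the same arrays served as an alternative, made by steps that the sources used here do not give. Without control and outlier-marked spots, log2 values were taken relative to the array's 75th percentile and replicate spots averaged; a probe was kept if well above background on 4 or more of 16 arrays. The brightest probe stood for a gene. Symbols came from RefSeq accessions (assembly GRCm38.p6; 24844 of 41174 probes).

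In R 4.3.3, limma 3.58.1 fitted 4 group means to all 16 arrays, checked on simulated data. Correlations used 100000 permutations in SciPy or exact enumeration for 8 arrays. Groups came from the sample titles. No pairing of the samples by replicate number was seen. The members, gene lists and tests were chosen with earlier results of these data known, so no list is independent evidence. Genes named are the 7 members, up to 4 called members of each list by size of change, the 8 features most like Lep or Adipoq, and Klf15 and Fkbp5; Pparg, Ucp1 and Cebpb in KO are named beside these. Alternatives were other scalings, background corrections, filters, blocks, covariates and arrays left out. The number of arrays limits the precision.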

Additional observations from a re-analysis of the deposited data

Results flagged for a closer look

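Within groups of 4, 2 member levels stood apart from the other 3 arrays by more than Dixon's criterion at the 95% level, which chance meets in about 5% of groups; 28 groups of member levels were examined. Retn was at 2.36 on KO vehicle replicate 4, with a gap of 0.93 of the group's range to the next array. This array also had the highest Adipoq, Cfd, Plin1 and Fabp4 of the 16. Cidec was at 3.41 on WT vehicle replicate 3, with a gap of 0.84 of the range, and this array had the lowest Cidec and the lowest Lep of the 16. Leaving out KO vehicle replicate 4 changed the call for Cidec averaged over genotypes, as given above.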

How the results depend on the processing

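The rise of Lep averaged over genotypes kept its direction and passed under all 14 alternatives (1.05 to 1.73) and without each of the 16 arrays (1.42 to 1.70); that in KO passed in 13 of 14 and without each array (1.68 to 2.12). The cause of the differences below was not tested unless given. The planned normexp correction rested on a fit that up to 8 spots with local background far above the signal distorted on 8 of 16 arrays, lifting the 5th percentile of corrected intensity to between 118.2 and 734.6, against at most 61.7 on the others and at most 62.8 without those spots, an alternative added after the data were seen. It also turned Lep for KO against WT to -0.41 under vehicle and to -0.18 averaged over treatments. Depth does not apply to arrays, and Lep lay closest to background in WT vehicle.

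In WT, Lep was 0.81 with normexp, 0.79 with normexp without those spots, 0.63 with slide as a fixed block and 1.29 with the replicate block (adjusted p = 0.061, limma), and 0.99 to 1.56 with 1 array left out. The number of members called in WT was 0 under these 4 and 0 to 1 with 1 array left out, 3 with either index as covariate and 2 with Adipoq. In KO, Lep was 1.28 with normexp, and the number of members called was 0 with normexp and 2 with each of the 3 covariates. Averaged over genotypes it was 4 with the index of 6 (Lep, Cidec, Plin1 and Adipoq), 3 with the index of 13, 2 with Adipoq, and 1 to 2 with 1 array left out. The index of 6 is the mean of the 6 markers, so their changes with it as covariate must balance out. Calls of Cidec, Plin1 and Adipoq in that fit are therefore not separate results. No pairing of the samples by replicate number was seen. Deviations of same-numbered arrays had a median correlation of -0.04 over 24 pairs, 5 of them over 0.1. Of 16 arrays, 1 correlated best with its own number. Same-numbered arrays always lay on different slides, so a pairing hidden by slide differences was not tested.

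Members that did not pass changed sign near 0. In WT, Cfd was 0.055 with median scaling and 0.11 with Adipoq as covariate. Retn in WT was 0.079 with median scaling, 0.038 without the 2 arrays high in neutrophil markers, 0.034 with the index of 6 and 0.25 with Adipoq. Fabp4 in WT was 0.18, 0.036, 0.040 and 0.15 in the same order, and 0.013 with the index of 13. In KO, Adipoq was -0.049 with median scaling, -0.062 with quantile normalization, -0.11 with normexp, -0.069 with normexp without those spots, -0.11 with the deposited values, -0.015 with slide as a fixed block, -0.17 without the 2 arrays high in neutrophil markers, -0.18 with the index of 6 and -0.082 with that of 13. Retn in KO was -0.052, -0.033, -0.061, -0.035 and -0.061 in the first 5 of these, -0.17 without the 2 arrays, -0.20 and -0.088 with the indices and -0.0044 with Adipoq. Plin1 in KO was 0.027 and 0.023 with slide as a fixed and random block. With 1 array left out, Retn ranged from -0.47 to 0.17 and Fabp4 from -0.28 to 0.094 in WT, and in KO Adipoq ranged from -0.17 to 0.28, Retn from -0.17 to 0.33, Plin1 from -0.38 to 0.32 and Fabp4 from -0.26 to 0.060.

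With group means removed, r of Lep with Adipoq, Cfd, Retn, Plin1, Cidec and Fabp4 in turn was -0.018, -0.042, -0.073, -0.18, 0.086 and 0.021 after quantile normalization, 0.036, 0.032, 0.23, 0.010, -0.23 and -0.15 less the 2 farthest arrays, and 0.54, 0.53, 0.45, 0.38, 0.71 and 0.47 with slide effects removed. In the 8 vehicle arrays it was 0.48, 0.44, 0.53, 0.50, 0.49 and 0.33, and in the 8 dexamethasone arrays -0.065, -0.14, -0.18, -0.22, 0.094 and 0.024, a split added after the data were seen.

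Median scaling moved the median change of all features from -0.08 to 0.17 in WT, from 0.06 to -0.14 for KO against WT under dexamethasone and from 0.13 to -0.18 for the interaction, and the share of higher calls from 47.2% to 82.8% in WT, from 55.6% to 44.3% in KO, from 52.5% to 65.6% on average, from 55.5% to 10.2% for KO against WT under dexamethasone and from 27.8% to 12.6% averaged; quantile normalization gave 44.8% in KO and 39.2% for KO against WT under dexamethasone. Features called with dexamethasone in WT numbered 2694, and 185 with normexp, 767 and 4053 with slide as a fixed and random block, and 1632 to 2687 with 1 array left out, the lowest without WT vehicle replicate 2. In KO the 2579 became 1419 with median scaling, 404 with normexp and 5080 with the random block, and the average of 4338 became 929 with normexp. For KO against WT under vehicle 66 became 38 (median scaling), 17 (normexp), 19 and 447 (slide fixed and random). Under dexamethasone 463 became 216, 49, 45 and 950 in that order, 289 with the replicate block, 235 without the 2 arrays high in neutrophil markers and 280 to 477 with 1 array left out. Averaged, 334 became 167, 61, 72, 985, 190 and 200. The interaction, at 0, became 1 with normexp without those spots, 1 with the deposited values, 6 with probes well above background on all arrays, 310 with the random block and 0 to 5 with 1 array left out.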
